A study of Secale cereale x Triticum turgidum subsp. durum with 48 samples.

Results

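The internode at the base of the triticale stem was compared between heading and booting, with 3 arrays labelled Stem59 set against 3 arrays labelled Stem45. The samples were taken by their titles, and they are 6 of the 48 arrays of the series. Triticale is a hybrid cereal with wheat and rye as its parents. Both groups came from the cultivar AC Certa, carried no named treatment or genetic change, and were grown in a temperature-controlled chamber with long days. Stem59 tissue was taken at Zadoks stage 59 and Stem45 tissue at Zadoks stage 45, in each case from the stretch of stem that lies above the crown and below the second node. The Zadoks scale numbers the stages of cereal development. The labels call each array a biological replicate and do not say how many plants went into it. The same internode was also sampled at stages 21 and 75, with 3 arrays each, and the other arrays cover root, coleoptile, leaf and the parts of the developing seed.

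During booting the young ear swells inside the sheath of the flag leaf, and heading ends when the ear has fully emerged. A cereal internode grows from a meristem at its base. Its cells first divide, then lengthen and then thicken their walls, and internodes low on the stem finish growth before those above them. Later the internode serves as a store of soluble carbohydrate that can be drawn on while the grain fills. Sucrose synthase, which splits sucrose for wall building and storage, and catalase, which breaks down hydrogen peroxide in leaf cells, are among the few genes here whose product is known from the gene table or the array's own IDs.

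RNA was measured on the Affymetrix Wheat GeneChip, on which a probe set is a group of short probes for a transcript. Values are log2 signal as deposited, so a difference of 1 is a 2-fold change. A level of 5.99, the 95th percentile of probe sets made for foreign reporter genes, is used as the background. Each of the 6 arrays had 34.4% to 34.8% of its probe sets above it, and array medians lay between 4.91 and 4.94. The gene table given for this array names 1273 of the 61115 tested probe sets, mostly by LOC numbers, which point to a gene record and do not describe its product. The other 59842 are unnamed here and are given by their probe set ID. Levels of different probe sets are not compared with each other, because each has its own probes.

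The internode arrays were alike. Pearson correlations across probe sets were 0.983 to 0.994 among the Stem59 arrays, 0.988 to 0.993 among the Stem45 arrays and 0.965 to 0.982 between the groups. Probe sets are not independent replicates, so these values describe likeness only. The label of internode tissue could not be checked with stem markers, since the gene table names none. Grain tissue markers were near background, however: THI1.1, a thionin, a small defence protein of the cereal grain, averaged 3.39 in Stem59 and 3.61 in Stem45 for its probe set Ta.23967.1.S1_s_at, against 14.47 in the crease of the seed.

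At heading, 968 probe sets were higher than at booting and 894 were lower, at an adjusted p under 0.05 in limma with a log2 difference of at least 1. These are 1.58% and 1.46% of all probe sets tested, 3.05% together. At an unadjusted p under 0.05, 17.6% differed. Among the 21167 probe sets whose mean over the 6 arrays exceeded the background, 3.35% rose and 3.19% fell. The median difference was 1.36 for the probe sets that rose and -1.32 for those that fell, and the extremes were 5.69 and -7.12. A difference of at least 3 on the log2 scale was reached by 30 of the risers and 32 of the fallers. Every Stem59 array lay above every Stem45 array for 887 of the 968 risers, and below it for 862 of the 894 fallers, beside 14.1% and 16.7% of all tested probe sets. Both group means lay below the background for 130 risers and 109 fallers. In 121 risers all 3 Stem45 arrays lay below the background and all 3 Stem59 arrays above it, and in 148 fallers the order was the opposite. In tissue taken whole, fewer cells of a type and less RNA per cell cannot be told apart. Probe sets just past the limit of 1 were common: 193 risers and 182 fallers had a difference under 1.1, and 202 and 220 probe sets with a passing adjusted p fell short of it with at least 0.9.

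**Figure D1:**
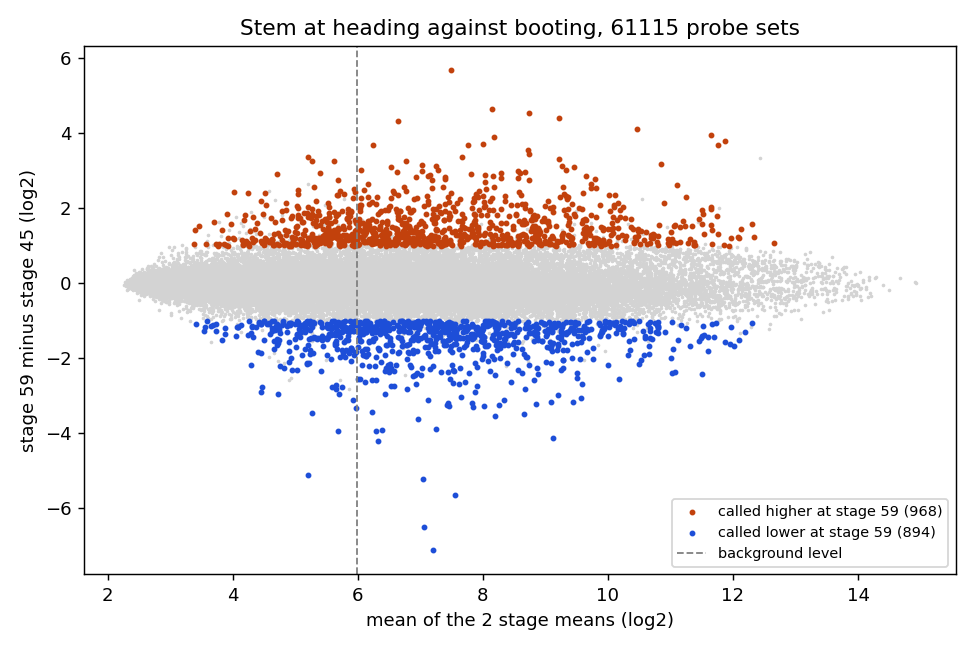
Log2 difference, Stem59 minus Stem45 (vertical axis), against the mean log2 level of both groups (horizontal axis), 1 point per tested probe set, with the background dashed. The 968 probe sets that rose and the 894 that fell are coloured, and the largest differences are 5.69 and -7.12.

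The count of risers rested partly on 1 array. Stem45 replicate 1 was the lowest of the 6 arrays in 644 of the 968 risers, 66.5%. The median level of the 968 risers was 7.95, 8.04 and 7.86 on the Stem59 arrays and 5.88, 6.83 and 6.36 on the Stem45 arrays, so Stem45 replicate 1 stood furthest from heading. The 894 fallers had medians of 6.67, 6.54 and 6.2 in Stem59 and 8.07, 7.89 and 8.07 in Stem45. Stem59 replicate 3 was the lowest of the 6 arrays in 500 of the 894 fallers, 55.9%, against 12.6% and 31.1% for Stem59 replicates 1 and 2. Without Stem45 replicate 1, 556 probe sets rose and 677 fell, and leaving out any other array left 822 to 1128 risers and 709 to 1010 fallers. That array held an ordinary median of 4.91 and hybridization spikes at 10.91, close to 11.1 and 11.09 on the other Stem45 arrays. Whether the plant or the handling set it apart was not tested. The spikes of Stem59 replicate 3 were lower, at 10.51, against 10.92 and 11.1 on the other Stem59 arrays. With arrays scaled to these spikes, the median of all probe sets shifted by 0.19, and 1339 probe sets rose and 463 fell.

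**Figure D2:**
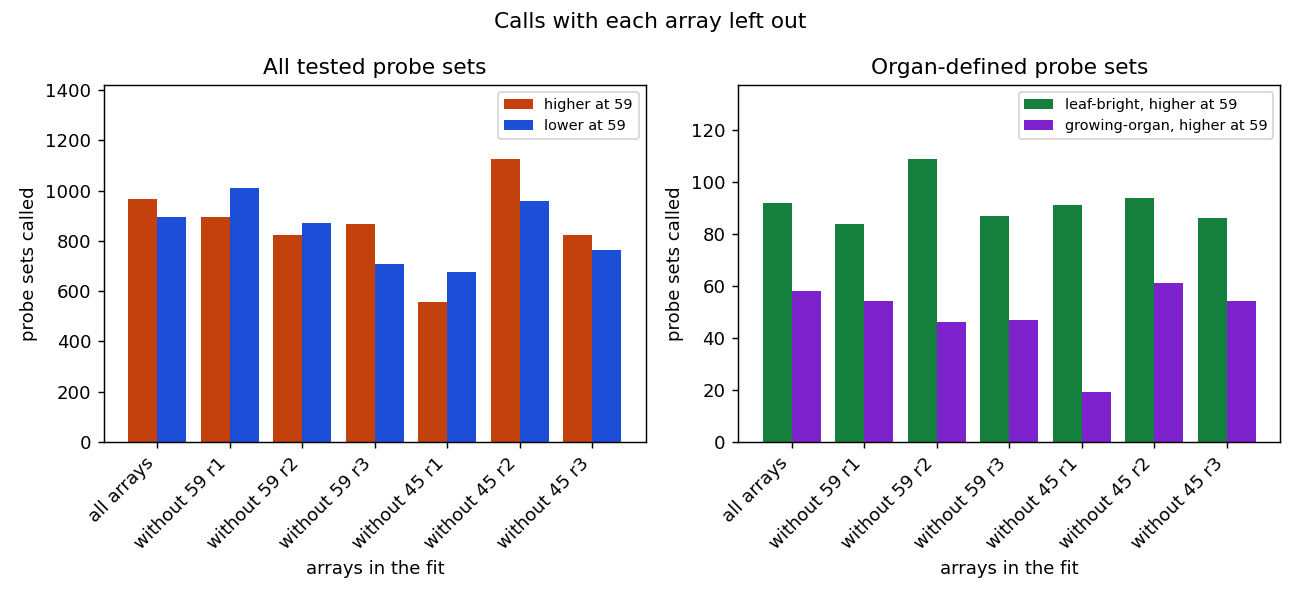
Number of probe sets called with all 6 arrays and with each array left out in turn, for all tested probe sets (left) and for risers among the leaf-bright and growing-organ probe sets described further on (right). The fit without Stem45 replicate 1 has the fewest risers, 556 of all probe sets and 19 of the growing-organ ones.

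Among the largest changes, the strongest rise was that of an unnamed probe set, TaAffx.8804.2.S1_at. Its log2 level was 11.04, 8.75 and 11.23 in Stem59, against 4.67, 4.66 and 4.61 in Stem45. The groups did not overlap, and all 3 Stem45 arrays lay below the background, so the level was at least 20.4-fold higher at heading (log2 difference as fitted 5.69, SE 0.488, limma adjusted p = 1.83e-10). It was bright before and after as well, with means of 11.25 at stage 21 and 12.16 at stage 75, and brightest in the flag leaf of stage 49, at 13.29. In root it stood at 4.9. Booting was thus the only one of the 4 stem stages at which this transcript lay below the background.

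A pair of probe sets of ID cluster Ta.20804 gave the next largest rises. A cluster is a set of overlapping transcript sequences from which the probes were designed. Ta.20804.2.S1_x_at read 10.72, 10.02 and 10.68 in Stem59, against 5.77, 6.89 and 4.79 in Stem45, a difference of 4.66 (SE 0.569, limma adjusted p = 4.09e-07). Its neighbour Ta.20804.1.S1_x_at read 11.25, 10.6 and 11.18 in Stem59, against 6.73, 7.41 and 5.27 in Stem45, and rose by 4.54. Both were also high at tillering, with means of 13.75 and 12.86 at stage 21, and below the background at stage 75, with 4.61 and 5.05. The young leaf of stage 13 showed them at 13.55 and 12.65, and root at 4.42 and 4.51.

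The largest fall was that of LOC780636, all 3 of whose probe sets fell. Ta.7339.1.S1_at read 3.86, 3.53 and 3.53 in Stem59, against 11.37, 10.02 and 10.89 in Stem45. All Stem59 arrays lay below the background, which makes the level at least 27.3-fold lower at heading (log2 difference as fitted -7.12, SE 0.32, limma adjusted p = 6.53e-19). A second probe set, Ta.7339.1.S1_x_at, fell by 6.51 as fitted and was at least 20.0-fold lower. The third fell by 2.69, with means of 5.58 in Stem59 and 8.27 in Stem45. Ta.7339.1.S1_at was highest at booting among all 16 groups. It averaged 7.91 in stem at stage 21, 7.42 in leaf at stage 13 and 7.55 in leaf at stage 23, and lay below the background in every other group.

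The next fall in size belonged to the unnamed Ta.28472.1.S1_at. It read 4.94, 4.65 and 4.57 in Stem59, against 11.16, 9.6 and 10.36 in Stem45, at least 20.9-fold lower at heading (log2 difference as fitted -5.65, SE 0.513, limma adjusted p = 6.17e-10). It changed sides at each step of the stem course. Its means at stages 21, 45, 59 and 75 were 4.5, 10.37, 4.72 and 10.71, and it was brightest in root, at 11.8.

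Of the probe sets that carry a gene symbol, 46 rose and 31 fell, 3.61% and 2.44% of the 1273. Over all tested probe sets the shares were 1.58% and 1.46%, and over those above the background 3.35% and 3.19%. The called probe sets with a symbol belong to 28 genes with a riser and 27 with a faller, and 1 gene had both. The 12 largest rises and 12 largest falls, 1 probe set per gene, are given here, ordered by where else in the plant each was high, since LOC numbers give no role.

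**Figure D3:**
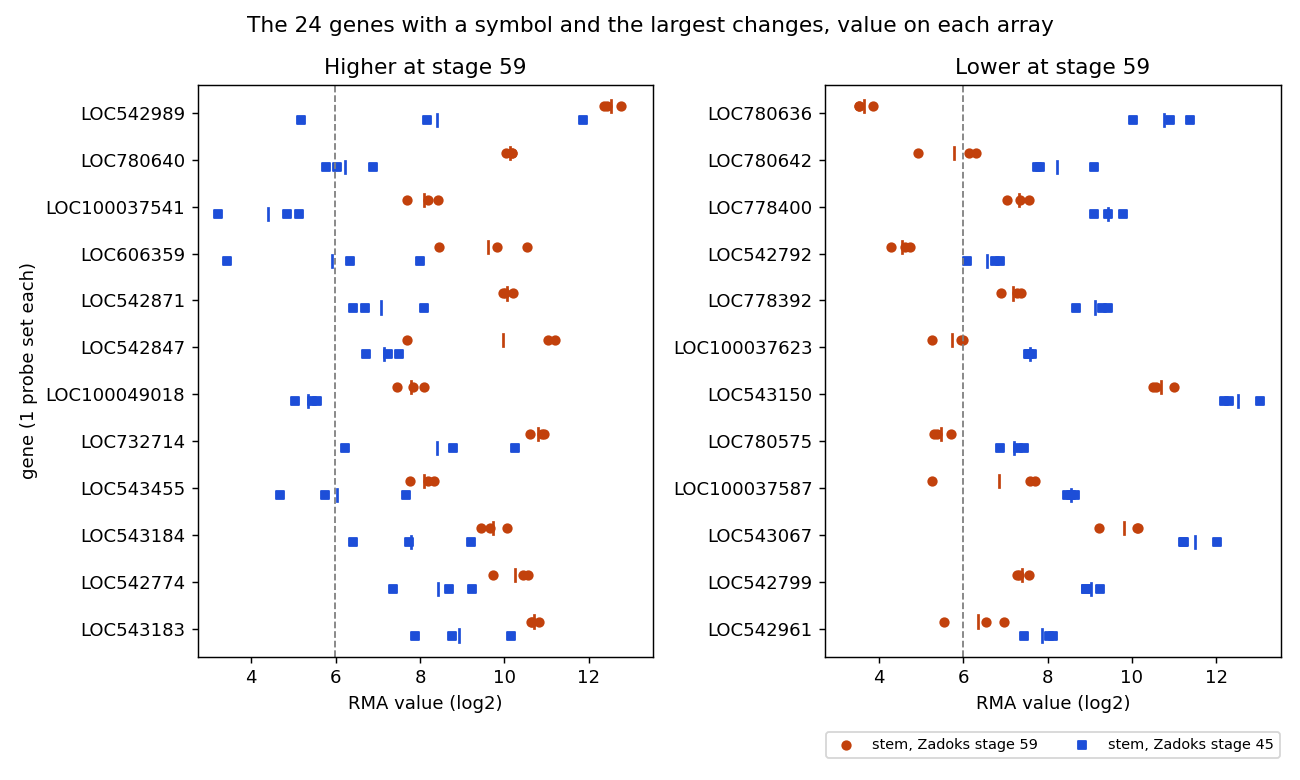
Log2 level on each Stem59 and Stem45 array of the 12 largest rises (left) and 12 largest falls (right) among genes with a symbol, 1 probe set and row per gene, with a point per array, a short line at each group mean and the background dashed. LOC780636 has the widest gap, with Stem59 arrays at 3.53 to 3.86 and Stem45 arrays at 10.02 to 11.37.

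Of the 12 rises, 3 genes were high in the young leaf of stage 13, with means of 12.93 for LOC542871, 10.06 for LOC100049018 and 13.32 for LOC542989. LOC542871 read 10.21, 10.01 and 9.96 in Stem59, against 8.09, 6.4 and 6.7 in Stem45, and rose by 3.0 (SE 0.265, limma adjusted p = 3.73e-10). Both of its probe sets rose. It averaged 13.29 at stage 21 and 12.55 at stage 75, so booting was its lowest stem stage, and root stood at 4.35. LOC542871 was not confined to leaf. It was brightest in the epiderm of the seed, at 14.05, and read 13.44 in coleoptile, 11.76 in endosperm and 11.73 in pericarp. LOC100049018 read 7.83, 7.46 and 8.1 in Stem59, against 5.44, 5.03 and 5.56 in Stem45, where no array passed the background, and was at least 3.5-fold higher at heading (limma adjusted p = 3.5e-06). This probe set of LOC100049018 was highest in leaf, and of the 28 probe sets of the gene 4 rose and 1 fell, with 9 above the background at either stage. LOC542989 averaged 14.01 at stage 21, 5.38 at stage 75 and 14.03 in coleoptile, and its Stem45 arrays were far apart. LOC542989 read 12.43, 12.37 and 12.76 in Stem59, against 5.17, 11.87 and 8.17 in Stem45, a rise of 4.12 (SE 1.16, limma adjusted p = 0.0197). That call was lost without Stem45 replicate 1, where the difference was 2.5 and the adjusted p 0.312. It was also lost without Stem59 replicate 2, Stem59 replicate 3 or Stem45 replicate 3, with adjusted p of 0.053, 0.0709 and 0.0721. Of its 3 probe sets, 2 rose.

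A further 2 genes rose at heading and were higher still in the stem of stage 75. LOC780640 read 10.03, 10.19 and 10.17 in Stem59, against 5.78, 6.89 and 6.03 in Stem45, and rose by 3.9 (SE 0.258, limma adjusted p = 1.09e-13). All 3 of its probe sets rose. Its stem means were 5.11, 6.23, 10.13 and 10.8 at stages 21, 45, 59 and 75. LOC100037541 read 8.18, 8.42 and 7.69 in Stem59, against 4.85, 5.12 and 3.22 in Stem45, all of which lay below the background, and was at least 4.31-fold higher at heading (limma adjusted p = 4.44e-10). At stage 75 LOC100037541 averaged 13.27, and the flag leaf of stages 49, 75 and 85 showed it at 10.31, 10.92 and 11.05. In root, coleoptile and all seed tissues it lay below the background. The other probe set of LOC100037541 differed by 0.18 and lay below the background.

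Outside the stem, LOC606359 lay above the background in root alone, with a mean of 10.58. It read 9.82, 8.44 and 10.54 in Stem59, against 3.43, 8.0 and 6.33 in Stem45, a rise of 3.68 (SE 0.51, limma adjusted p = 4.37e-06). Its 3 probe sets all rose. Its mean at stage 21 was 2.49 and at stage 75 it was 2.36. Without Stem45 replicate 1 the difference was 2.44, and with the 6 arrays fitted alone the adjusted p was 0.0602. LOC542847, which read 11.04, 11.21 and 7.68 in Stem59, against 6.72, 7.5 and 7.24 in Stem45, rose by 2.82 (limma adjusted p = 1.47e-04). Its Stem59 replicate 3 lay near the Stem45 arrays, and without it the difference was 3.97. With the 6 arrays alone its adjusted p was 0.0683.

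The other 5 rises, LOC732714, LOC543455, LOC543184, LOC542774 and LOC543183, were brightest in root or embryo among the organs outside the stem. All 5 had Stem45 replicate 1 as their lowest array and Stem45 replicate 2 as the highest of the Stem45 arrays. LOC732714 read 10.6, 10.88 and 10.94 in Stem59, against 6.22, 10.24 and 8.77 in Stem45, a rise of 2.4 (SE 0.628, limma adjusted p = 0.0116). LOC543455 read 7.76, 8.32 and 8.19 in Stem59, against 4.68, 7.67 and 5.75 in Stem45, and rose by 2.06 (SE 0.383, limma adjusted p = 3.7e-04). LOC543183 read 10.64, 10.81 and 10.66 in Stem59, against 7.88, 10.16 and 8.75 in Stem45, and rose by 1.77 (SE 0.335, limma adjusted p = 4.48e-04). LOC543184 rose by 1.95 and LOC542774 by 1.81. Of 6 probe sets of LOC732714 4 rose, and of 7 of LOC543184 3 rose. Without Stem45 replicate 1, LOC543455 and LOC543183 still passed, with differences of 1.38 and 1.25. LOC732714, LOC543184 and LOC542774 did not, with differences of 1.3, 1.26 and 1.27 and adjusted p of 0.283, 0.154 and 0.304. LOC542774 was also lost without Stem59 replicate 2, Stem59 replicate 3 or Stem45 replicate 3, with adjusted p of 0.128, 0.115 and 0.0621. With the 6 arrays fitted alone, LOC732714, LOC543455, LOC543184 and LOC543183 had adjusted p of 0.114, 0.0791, 0.0747 and 0.0513.

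Among the 12 falls, after LOC780636, LOC543150, LOC543067, LOC542799 and LOC100037587 had means of at least 7.76 at stage 21, and means at stages 59 and 75 below those at stages 21 and 45. LOC543150 read 10.58, 10.5 and 11.0 in Stem59, against 13.03, 12.31 and 12.18 in Stem45, and fell by 1.81 (SE 0.425, limma adjusted p = 0.00445). Its stem means were 11.88, 12.51, 10.69 and 5.19 at stages 21, 45, 59 and 75, and coleoptile stood at 12.63. LOC543067 averaged 11.27, 11.48, 9.82 and 6.74 over the same stages and fell by 1.66 at heading, while the leaf of stage 23 showed it at 12.55. LOC542799 averaged 10.94, 9.02, 7.39 and 7.52 and fell by 1.63, with its highest level in embryo, at 13.16. LOC100037587 averaged 7.76, 8.56, 6.85 and 4.23 and fell by 1.71, which rested on Stem59 replicate 3 at 5.27, beside 7.7 and 7.58 on the other Stem59 arrays. Without Stem59 replicate 3 its difference was -0.92 and its adjusted p 0.0808. LOC543150 lost its call without Stem45 replicate 1, at an adjusted p of 0.0548. LOC543067 did so without Stem59 replicate 3 or Stem45 replicate 1, at 0.0517 and 0.0541.

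In 5 of the falls, booting was the highest of the 4 stem stages and tillering was no brighter than 6.75. LOC780642 read 6.3, 6.13 and 4.92 in Stem59, against 9.11, 7.82 and 7.76 in Stem45, and fell by 2.45 (SE 0.357, limma adjusted p = 1.07e-05). It averaged 4.55 at stage 21 and 5.29 at stage 75, and outside the stem it was highest in root, at 8.59. LOC542792 averaged 4.56 in Stem59, with no array above the background, and 6.57 in Stem45, at least 1.49-fold lower at heading (limma adjusted p = 6.39e-04). LOC100037623 read 5.95, 5.25 and 6.0 in Stem59, against 7.63, 7.53 and 7.56 in Stem45, and fell by 1.84. Its Stem45 arrays lay close together. LOC780575 was at least 2.32-fold lower at heading, and LOC542961 fell by 1.51. Of the probe sets of LOC780575 and LOC542961, only 1 each fell, of 3 and 5.

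The last 2 falls, LOC778400 and LOC778392, had high levels at stage 75. LOC778400 read 7.35, 7.57 and 7.03 in Stem59, against 9.78, 9.11 and 9.44 in Stem45, and fell by 2.13 (SE 0.352, limma adjusted p = 7.53e-05). It averaged 9.52 at stage 21 and 9.1 at stage 75. LOC778392 read 7.37, 6.9 and 7.27 in Stem59, against 9.43, 9.28 and 8.67 in Stem45, and fell by 1.95 (SE 0.594, limma adjusted p = 0.0343). It averaged 7.13 at stage 21 and 10.04 at stage 75. The call for LOC778392 was lost when any 1 of the 6 arrays was left out, with adjusted p between 0.0502 and 0.15, and only 1 of its 3 probe sets fell.

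Only 13 of the symbols in the gene table are words that name a product, and of these only CAT1, a catalase, changed at heading. These genes were looked at after the data were seen. The CAT1 probe set Ta.442.1.S1_at read 9.64, 9.26 and 9.63 in Stem59, against 8.27, 8.19 and 7.79 in Stem45, and rose by 1.43 (SE 0.211, limma adjusted p = 1.29e-05). The groups did not overlap. Over the stem course it averaged 11.08, 8.08, 9.51 and 12.64 at stages 21, 45, 59 and 75, and in leaf it lay at 13.32 to 13.83. The other CAT1 probe set, TaAffx.80209.1.S1_at, lay below the background, with means of 4.42 in Stem59 and 4.37 in Stem45, and was not called. FBP had 10.87, 10.78 and 11.01 in Stem59 and 10.31, 10.28 and 10.19 in Stem45, a difference of 0.63 that did not pass (adjusted p = 0.0731). The gene petC, for the Rieske protein of the chloroplast cytochrome complex, had means of 13.14 in Stem59 and 12.79 in Stem45 (adjusted p = 0.366). XTH, an enzyme that cuts and rejoins wall xyloglucan, had 9.52, 10.11 and 9.37 in Stem59 and 10.13, 9.96 and 10.39 in Stem45, and its groups overlapped (difference -0.49, adjusted p = 0.755). TUBA, an alpha tubulin, was bright, with 13.89 in Stem59 and 13.96 in Stem45 for Ta.812.1.S1_x_at (difference -0.07, adjusted p = 0.932). SAHH, GAPN and TBP1 differed by 0.05 to 0.19 in size, and the probe sets of the thionins, COR410 and PFK lay below the background.

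The array carries control probe sets that name 8 wheat genes in their IDs, tested in a second fit. Sucrose synthase, Sucsyn, was the only one of them with a call. Its brightest probe set, AFFX-Ta_Sucsyn_3_at, read 12.15, 12.02 and 11.45 in Stem59, against 12.97, 12.69 and 12.96 in Stem45, and fell by 1.0 (SE 0.223, limma adjusted p = 0.00272). AFFX-Ta_Sucsyn_M_at read 9.48, 9.25 and 8.53 in Stem59, against 10.77, 10.4 and 10.58 in Stem45, and fell by 1.5 (SE 0.325, limma adjusted p = 0.00214). No Stem59 array reached a Stem45 array in either. The difference of AFFX-Ta_Sucsyn_3_at sat at the limit and was under it without Stem59 replicate 3 (-0.79), Stem45 replicate 1 (-0.95) or Stem45 replicate 3 (-0.96). Its call was lost in 5 of the 18 alternatives to the processing, these among them. Over all 18 its difference ran from -1.14 to -0.79, with a limma adjusted p of up to 0.108. The third, AFFX-Ta_Sucsyn_5_at, had means of 4.67 in Stem59 and 5.58 in Stem45, both below the background. Ubiquitin differed by -0.29, -0.4 and -0.41 in its 3 probe sets, under the 2-fold limit, with every Stem59 array below every Stem45 array and adjusted p of 0.168, 0.0984 and 0.00427. The actin, ef1a, gapdh, 18SrRNA, CYP86-TA and G-6-PDH probe sets had differences between -0.23 and 0.69, and none was called.

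Since the gene lists for lignin, cell walls, sugars, hormones and the other pathways could not be filled from LOC numbers, groups of probe sets were described by the organs in which they are bright. The groups were defined on arrays other than stem, after the data had been seen, and are given without a test. Bright means above 7.99, which is 2 above the background, on every array of an organ.

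Probe sets typical of leaf stood higher at heading. Of 391 probe sets bright in leaf at stages 13 and 23 and in flag leaf at stage 49, and below the background in root, embryo and crease, 92 rose and 7 fell. These are 23.5% and 1.79%, beside 1.58% and 1.46% of all tested probe sets and 3.35% and 3.19% of all probe sets with a mean above background. The difference was above 0 in 342 of the 391, with a median of 0.59 and quartiles of 0.29 and 0.99. The median level was 8.47, 8.21 and 8.37 on the Stem59 arrays and 7.73, 7.61 and 7.64 on the Stem45 arrays, so the groups of arrays did not overlap. Over stem stages 21, 45, 59 and 75 the median was 9.84, 7.65, 8.35 and 9.04, lowest at booting. The count of 92 lay between 84 and 109 when any 1 of the 6 arrays was left out. How much leaf sheath the samples held was not tested, since the gene table names no marker for it.

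**Figure D4:**
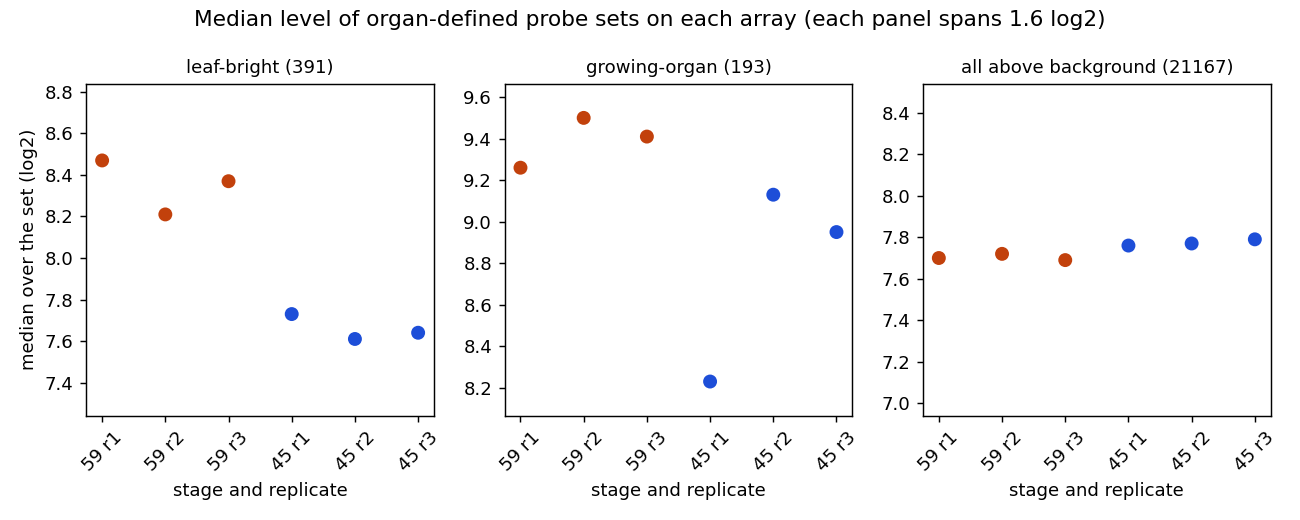
Median log2 level on each Stem59 and Stem45 array of the 391 leaf-bright probe sets, the 193 growing-organ probe sets and the 21167 probe sets above the background, 1 point per array, with panels of equal height that do not start at 0. The leaf-bright Stem59 arrays (8.21 to 8.47) all lie above the Stem45 arrays (7.61 to 7.73), while in the growing-organ set Stem45 replicate 1, at 8.23, lies apart from the other 5.

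The probe sets called growing-organ here, a name for where they are bright and not a measure of growth, were also higher at heading. The count of risers among them, however, rested in large part on 1 booting array. Of 193 probe sets bright in root, coleoptile and embryo and below the background in flag leaf at stages 75 and 85, 58 rose and 1 fell, 30.1% and 0.518%, beside 1.58% and 1.46% of all tested probe sets and 3.35% and 3.19% of those above the background. The median difference was 0.34, with quartiles of -0.19 and 1.65, and 123 of the 193 were above 0. The median level was 9.26, 9.5 and 9.41 on the Stem59 arrays and 8.23, 9.13 and 8.95 on the Stem45 arrays. Stem45 replicate 1 was the lowest of the 6 in 104 of the 193. Without it 19 probe sets of the group rose, and without any other array 46 to 61 did. With the 6 arrays fitted alone 11 of the group rose, beside 767 of all tested probe sets. Both stages had higher medians than the other stem stages, with 7.46, 8.76, 9.45 and 5.07 at stages 21, 45, 59 and 75. The leaf-bright and growing-organ groups share no probe set, and together hold 150 of the 968 risers, 15.5%.

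Some risers share an ID cluster. The 3 clusters with the most of the 968 risers, picked for that reason, are Ta.10329 with 26 of 39 probe sets, Ta.7378 with 14 of 38 and Ta.27657 with 10 of 14. The gene table pairs probe sets of Ta.7378 with LOC543184 and of Ta.27657 with LOC732714, and gives Ta.10329 no symbol. The median level of Ta.10329 was 10.11, 10.2 and 9.78 on the Stem59 arrays and 7.6, 9.76 and 8.72 on the Stem45 arrays. Ta.27657 had 10.74, 10.95 and 11.0 on the Stem59 arrays and 6.6, 10.42 and 9.4 on the Stem45 arrays. Both show Stem45 replicate 1 far below the other 5 arrays and Stem45 replicate 2 close to the Stem59 arrays. All 3 clusters had medians of 5.04 to 7.62 at stages 21 and 75 and of 10.34 to 12.38 in root, coleoptile and embryo. Without Stem45 replicate 1, 1 probe set rose in each of the 3 clusters. These clusters hold 18 of the 58 growing-organ risers, and the 58 come from 36 clusters. Probe sets of a cluster can share transcripts, so they do not count as separate genes. Over all clusters, the 968 risers came from 718 and the 894 fallers from 770, and 243 of 245 clusters with several called probe sets moved in 1 direction.

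Of 212 probe sets bright in root and below the background in leaf and coleoptile, 7 rose and 11 fell, 3.3% and 5.19%, beside 1.58% and 1.46% of all tested probe sets. Of 36 bright in coleoptile and below the background in leaf and root, 4 rose and 4 fell, 11.1% each. Of 128 embryo probe sets below the background in leaf, root and coleoptile, 2 rose and 2 fell, 1.56% each. Of 409 crease probe sets defined in that way 1 rose and 4 fell, 0.244% and 0.978%. Of 212 endosperm probe sets 2 rose and 4 fell, 0.943% and 1.89%. The medians of the embryo, crease and endosperm groups lay between 3.83 and 4.08 at both stages, below the background. Those of the root group were 4.21 in Stem59 and 4.16 in Stem45, and of the coleoptile group 5.14 and 5.37, also below it. Only 32 of the 212 root and 16 of the 36 coleoptile probe sets had a mean above the background at either stage. The shares of these groups thus count many probe sets too dim to be read in the stem.

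The probe sets that changed between booting and heading were set beside contrasts that share no array with them. From stage 21 to stage 75 of the same internode, 132 of the 968 risers were higher and 357 were lower, 13.6% and 36.9%. Over all tested probe sets 9.24% were higher and 7.94% lower, and over those above the background 18.8% and 17.0%. Of the 894 fallers, 297 were higher and 194 lower at stage 75 than at stage 21, 33.2% and 21.7%. The median difference, stage 75 minus stage 21, was -0.41 for the risers and 0.34 for the fallers. The rise at heading was thus more often opposite to the long change of the stem than along it, in counts. Read the other way, 357 of the 4851 probe sets lower at stage 75 rose at heading, 7.36%, as did 132 of the 5645 higher ones, 2.34%. Without Stem45 replicate 1, 93 of 556 risers were higher and 214 lower at stage 75.

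The flag leaf was compared in the same way, at stages 75 and 49. From stage 49 to stage 75 of the flag leaf, 41 of the 968 risers were higher and 76 lower, 4.24% and 7.85%, beside 2.82% and 1.36% of all tested probe sets and 4.11% and 2.89% of those above the background. With arrays scaled to the hybridization spikes, 1339 probe sets rose at heading. Of these 1339, 156 were higher and 60 lower in flag leaf, so the order of the counts turned. The spikes read 11.38 to 12.45 on the flag leaf arrays of stage 49 and 11.23 to 11.45 on those of stage 75. That scaling therefore raises the flag leaf difference of all probe sets alike. The share called over all of them under it is not given here, so nothing about the risers is read from the turned order. Of the 894 fallers, 113 were higher and 43 lower, 12.6% and 4.81%. With spike scaling 463 probe sets fell, of which 99 were higher and 17 lower. As shares of the flag leaf calls, 76 of 834 lower probe sets rose at heading in the stem, 9.11%, and 113 of 1723 higher ones fell, 6.56%.

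Stages 21 and 75 were set against the midpoint between the heading and booting means of each probe set. Of the 968 risers, 538 (55.6%) were at stage 21 on the heading side of it, and 379 (39.2%) were so at stage 75. Of the 894 fallers, 641 (71.7%) were on the heading side at stage 21 and 525 (58.7%) at stage 75. The median level of the risers was 7.46, 6.35, 7.91 and 6.56 at stages 21, 45, 59 and 75. That of the fallers was 6.47, 7.98, 6.44 and 6.71. The levels at stages 45 and 59 chose these probe sets, so nothing is read from the place of booting in these courses.

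**Figure D5:**
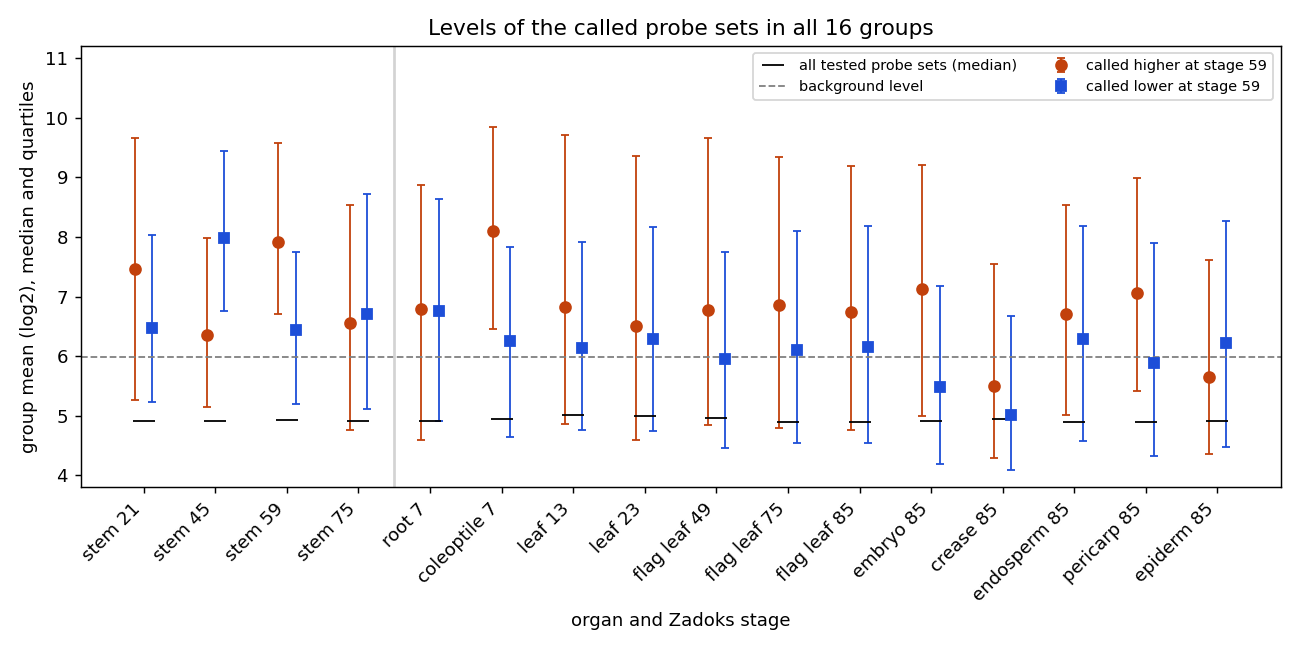
Median and quartiles, over probe sets, of the group mean log2 level of the 968 risers and the 894 fallers in each of the 16 groups, with the median of all tested probe sets as a short line and the background as a dashed line. The fallers have their highest median, 7.98, in Stem45, one of the groups that chose them, and the risers theirs, 8.1, in coleoptile.

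Outside the stem, the risers were brightest in coleoptile, with a median of 8.1, and embryo, with 7.13, and the fallers in root, with 6.75. The risers had nearly the same median in root, 6.79, so the root level did not set the fallers apart. The organ with the highest level was embryo for 33.8% of the risers, against 20.3% of the probe sets above background, and coleoptile for 10.7% against 4.87%. Leaf at stage 13 was highest for 11.8% against 7.14%, and flag leaf at stage 49 for 11% against 5.19%. For the fallers it was root in 21.9% against 13.5%, and the epiderm of the seed in 14.5% against 11.1%. The leaf of stage 23 was highest for 7.05% of the fallers and 2.27% of the risers, against 2.88%. In old flag leaf, of stage 85, the shares were 10.5% and 4.55%, against 8.16%. Flag leaf of stage 75 had 4.03% and 3.51%, against 5.14%. Leaf groups were thus not all on the side of the risers. Endosperm led in 8.72% of the fallers, against 4.68%. Embryo and crease were highest for fewer fallers, 9.96% against 20.3% and 7.38% against 14.2%. These shares were not taken again without Stem45 replicate 1, the lowest of the 6 arrays in 66.5% of the risers. They count each probe set, also those that share an ID cluster.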

How the data were processed

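The 48 arrays held total RNA amplified in a pair of cycles, 1 biological replicate each per the labels, and stem RNA was cleaned of carbohydrates once more. The authors deposited 1 table of log2 values made with RMA, per the submitters' processing notes. The software version is not given in the sources used here. Because RMA gives all arrays nearly equal distributions, a shift shared by most transcripts would not show. The log base was taken as 2, since RMA gives log2 and the values run from 1.92 to 15.

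Of 61290 probe sets, the 111 AFFX and 64 reporter ones were not counted. Tests used limma 3.58.1 in R 4.3.3, two-sided, fitting 16 group means over all 48 arrays at once (32 residual and 5.59 prior degrees of freedom) and Benjamini-Hochberg adjustment over 61115 probe sets. A second fit added the 25 AFFX probe sets of wheat genes. A call needs an adjusted p under 0.05 and a log2 difference of at least 1. The labels do not name separate plants for the replicates, so p-values reflect only the spread among these samples, which may be technical. That spread is pooled over all 16 groups and is not that of the 6 stem arrays alone. For TaAffx.8804.2.S1_at, with an SD of 1.38 in Stem59, the limma adjusted p was 1.83e-10, and 0.00151 with the 6 arrays fitted alone. A bound ("at least") sets the brighter mean against the background where every array of the dimmer stage lay below it. The number of arrays limits the precision.

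Named are the 2 largest rises and 2 largest falls, and the 12 largest of each among probe sets with 1 symbol (1 per gene), all non-overlapping between stages with the higher mean above background. Since both of the largest falls are LOC780636, Ta.28472.1.S1_at was added after its values were seen, as was Ta.20804.1.S1_x_at. The gene symbols come from the platform annotation as given for this array, which can be old. No probe set had several symbols. The pathway and tissue lists matched 1 symbol, COR410, which lay below background in the stem, and the control genes actin and Ubiquitin, so they were not run. The samples are taken by title, and this comparison, the lists and the named genes were chosen with earlier results of these data known. The steps were tested on simulated data. Alternatives covered array scaling, filters on dim probe sets, the variance prior, the arrays in the fit, array weights, thresholds, a replicate block and leaving out each array.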

Additional observations from a re-analysis of the deposited data

How the results depend on the processing

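Against the 1862 calls with all arrays, no probe set changed direction under any of the 18 alternatives. Thresholds, filters, the variance prior, the fits of the 6 or 12 stem arrays and the replicate block leave the differences themselves unchanged. Centring on the median or the spikes moves every difference alike, to a median of -0.01 or 0.19, while a call needs at least 1. No direction could turn under any of these, so the lack of turns says little about them. Dropping the fold minimum keeps every call by design, and the other alternatives kept 62.7% to 98.4% of the calls. With no fold minimum 4770 probe sets were called, 2148 higher and 2622 lower. Of these risers 317 were higher and 1028 lower at stage 75 than at stage 21 of the stem, and of these fallers 1268 and 487, while 150 leaf-bright probe sets rose. With arrays scaled to the hybridization spikes, 463 fell, of which 161 were higher and 97 lower at stage 75, and 74.3% of the calls were rises, against 52.0% as deposited. Leaving out each array in turn gave 1233 to 2086 calls, 556 to 1128 higher and 677 to 1010 lower. Of the risers 93 to 148 were higher and 214 to 419 lower at stage 75, and of the fallers 212 to 329 and 129 to 199. In each of these the lowest value was without Stem45 replicate 1. The growing-organ count ran from 19 to 61 and the leaf-bright count from 84 to 109. With the 6 arrays alone 767 rose, 894 fell, and 11 growing-organ probe sets rose. Same-numbered replicates of both stages deviated from their group means with correlations of 0.148, -0.101 and -0.155, so the numbers were not taken as pairs. With the replicate block in a fit of the 12 stem arrays 950 rose and 892 fell, against 959 and 907 without it. The gene lists could not be tried under any alternative. Small counts moved by over 1.5 times too, each taken out of the probe sets called under its own alternative. Of the risers, 156 were also higher in flag leaf with spike scaling, where 60 were lower, 66 with array weights, 21 at an adjusted p under 0.01 and 20 to 47 with each array left out, against 41. Of the fallers, 17 were also lower in flag leaf with spike scaling, 26 at an adjusted p under 0.01 and 27 to 44 with each array left out, against 43, and 73 were higher at an adjusted p under 0.01, against 113. With no fold minimum the 4 flag leaf counts were 239, 276, 658 and 194. The leaf-bright fallers ran from 3 to 14, against 7, the growing-organ fallers from 0 to 4, against 1, and the risers of the 3 ID clusters moved as well. The cause of these shifts was not tested, and probe sets dimmer than 5.99 on all arrays give no usable difference.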

Other observations

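The 10 probe sets bright in old flag leaf and below background in young leaf were low in both stem groups, with medians of 5.78 in Stem59 and 4.72 in Stem45, and 3 of them rose (30% of 10, beside 1.58% of all tested probe sets) while 0 fell. Their medians per array were 6.17, 5.62 and 5.06 in Stem59, against 5.0, 4.72 and 4.44 in Stem45. A set of 75 probe sets bright in coleoptile and leaf and below background in old flag leaf had 8 that rose and 6 that fell, 10.7% and 8.0%, beside 1.58% and 1.46% of all tested probe sets, with medians of 9.66 in Stem59 and 9.74 in Stem45. The same set stood at 11.5 at stage 21 and 4.73 at stage 75. These sets were chosen after the data were seen.

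Replicates spread unevenly. The median SD over 3 arrays was 0.24 in Stem59 and 0.35 in Stem45 for the probe sets that rose, 0.27 in Stem59 and 0.23 in Stem45 for those that fell, and 0.14 in Stem59 and 0.13 in Stem45 over all probe sets above background. Of the probe sets above background, 6.62% with Ta IDs and 6.34% with TaAffx IDs were called, and by suffix the share was 8.8% for _s_at, 7.15% for _x_at, 6.37% for _at and 5.2% for _a_at.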
